A study of Homo sapiens with 4 samples.

Results

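The genes described here are 44 ribosome biogenesis genes that are commonly listed as MYC targets, and they were followed after NeuroD1 knockdown in IMR-32 neuroblastoma cells. They were taken by name from 60612 genes of a count table: parts of RNA polymerase I and its factors, nucleolar proteins grouped as abundant, the proteins of small nucleolar ribonucleoprotein particles (snoRNPs), and assembly factors of the 40S and 60S ribosomal subunits. All 44 were among the 17537 genes that passed the filter on low counts. In shNeuroD1 cells, 24 members were lower and 3 were higher, and 17 did not pass the test, where 28.2% of all tested genes were lower and 26.8% were higher. The changes were small. The median log2 fold change was -0.16, and the members ranged from -0.73 (DDX21) to 0.56 (PPAN).

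IMR-32 is an established human neuroblastoma line with amplified MYCN, and NeuroD1 is a basic helix-loop-helix transcription factor of neural development. The study compared gene expression with and without NeuroD1 in 4 RNA libraries. The shControl group (n = 2) and the shNeuroD1 group (n = 2) were both IMR-32 cells stably transduced with an inducible short hairpin RNA. All cells received doxycycline at 1 µg/mL for 48 h. The drug and the induction of a hairpin were thus common to both groups, while the hairpin itself differed. The genotype label calls the control wild type and the series text calls it parental, so it is described here only as cells with the control hairpin. No source used here tells whether libraries of the same group came from separate cultures, so p-values measure the spread between these libraries, which may be technical. The column headings of the study's own table give the same NeuroD1 hairpin for both knockdown libraries. The sample titles of both groups end in 1 and 2, and the paper's 2 NeuroD1 hairpins carry the same endings. The number of hairpins used is thus not certain, and loss of NeuroD1 and other hairpin effects cannot be told apart.

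Ribosomes are made in the nucleolus. RNA polymerase I copies the ribosomal DNA into a long precursor RNA, guided by UBTF on the DNA and by RRN3 on the polymerase. Box C/D snoRNPs then methylate the precursor and box H/ACA snoRNPs convert uridines to pseudouridine, while large complexes cut, fold and package the RNA into a small and a large subunit. MYC proteins are known to activate many genes of this pathway through E-box sequences near their transcription starts, and high MYCN in neuroblastoma is known to go with large nucleoli. None of these steps was measured in these libraries, which hold messenger RNA levels only. Whether the 44 genes are under MYC control in these cells was not tested.

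The canonical MYC E-box, CACGTG, was common in the promoters of the members. Promoter windows (250 bases before to 50 bases after the transcription start, RefSeq, GRCh38.p14) were found for 37 of the 44 genes and none was found for BOP1, DDX18, NOLC1, NOP58, RRP12, RRP1B and RRS1. CACGTG, which reads the same on both strands, occurred in 17 of the 37 (45.9%), against 8.77% of 27305 genes in the same promoter set, 12.4% of the 11815 tested genes that had a window, and 25.9% of 112 other ribosome biogenesis genes. Only 11815 of 17518 tested symbols had a window, so the share over tested genes covers part of them. The E-box type bound by NEUROD1 with its E-protein partners, CAGATG or its other strand CATCTG, occurred in 2 members, NOC2L and PPAN (5.41%), against 17.5% of all genes in the set, 13.9% of the tested genes that had a window and 3.57% of the 112 other ribosome biogenesis genes. A match is a run of letters and not a measured binding site. Windows of 30 bases around the motif are printed for 5 members that fell and 3 that did not pass the test, because they show that the same letters stand close to the start in both kinds of gene, and for PPAN, the member with the largest rise. Capitals mark the motif, the strand is that of the gene, and the position is the distance of the first motif base from the start, negative before it.
DDX21, chr10:68956604-68956633, plus strand, position -31: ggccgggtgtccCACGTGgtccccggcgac
FBL, chr19:39846356-39846385, minus strand, position 6: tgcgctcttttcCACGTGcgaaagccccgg
NOP14, chr4:2963374-2963403, minus strand, position 15: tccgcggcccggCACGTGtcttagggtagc
WDR43, chr2:28894658-28894687, plus strand, position 3: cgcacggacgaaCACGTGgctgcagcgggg
GNL3, chr3:52686026-52686055, plus strand, position 6: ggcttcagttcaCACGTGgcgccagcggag
PES1, chr22:30591880-30591909, minus strand, position 13: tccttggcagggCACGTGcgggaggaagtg
RRP9, chr3:51941892-51941921, minus strand, position -5: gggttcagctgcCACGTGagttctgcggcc
NAT10, chr11:34105602-34105631, plus strand, position -15: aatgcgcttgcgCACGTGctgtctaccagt
PPAN, chr19:10106232-10106261, plus strand, position 21: tagcaaccgctcCATCTGattgcccctccc

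The motif did not separate the members that fell from those that did not. Of the 17 members with CACGTG, 10 were lower (BYSL, DDX21, FBL, GNL3, LYAR, MRTO4, NOP10, NOP14, UTP20 and WDR43) and their median log2 fold change was -0.22. Of the 20 members with a window and no CACGTG, 10 were lower as well, with a median of -0.15. These are counts without a test.

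Genes were called lower or higher at a Benjamini-Hochberg adjusted p under 0.05 in edgeR's quasi-likelihood test, fitted across all tested genes. At that threshold 55% of all tested genes were called, 28.2% lower and 26.8% higher. The members had 54.5% lower and 6.82% higher. Highly expressed genes fell more often in these libraries, so the share was also taken over the 8134 genes whose mean level was at least that of the lowest member, PPAN, at 22.4 CPM (counts scaled to library size): 43.5% of these were lower and 24.9% were higher, with a median log2 fold change of -0.09 against 0.01 for all tested genes. Beside genes of like level, a larger share of the members was lower (54.5% against 43.5%) and a smaller share was higher (6.82% against 24.9%), which describes the list and was not tested. None of the 44 passed the additional threshold of a log2 fold change beyond 1 in size, which 13.9% of all tested genes did. Both shNeuroD1 libraries lay below both shControl libraries for 28 members and above them for 5, where 37.7% and 38.4% of all tested genes did so.

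**Figure D1:**
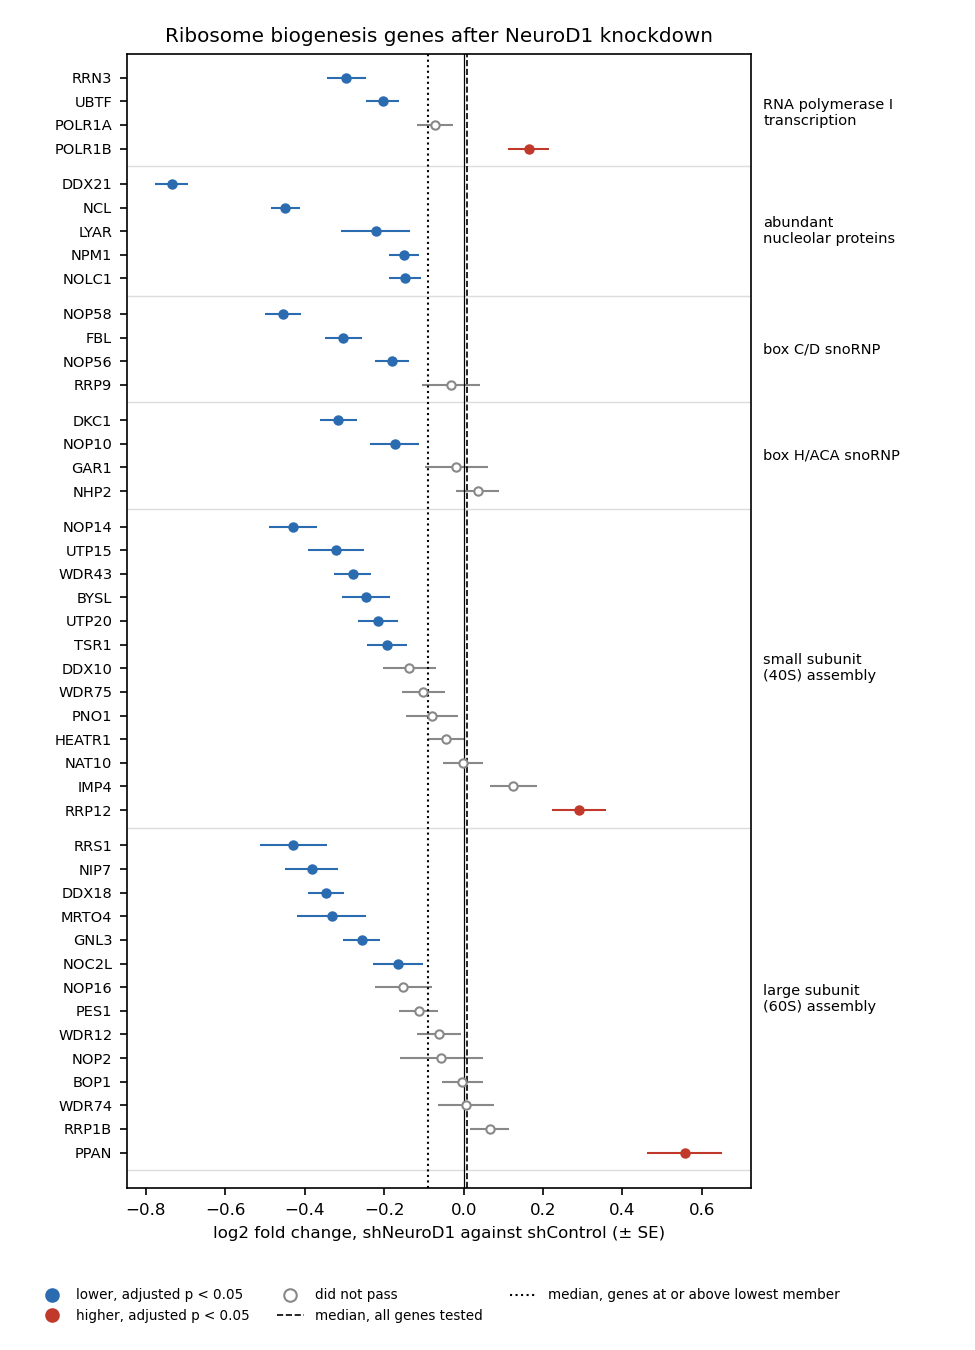
Log2 fold change of each of the 44 members (x axis, shNeuroD1 against shControl, bars ± SE of the edgeR fit), grouped by role on the right. The dashed line is the median of all genes tested (0.01) and the dotted line the median of genes at or above the level of the lowest member (-0.09). Of the 44 points, 37 lie below 0, and DDX21 at -0.73 and PPAN at 0.56 stand at the ends.

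Genes of RNA polymerase I transcription moved in both directions. RRN3 and UBTF were lower, POLR1B was higher, and POLR1A did not pass, with a median log2 fold change of -0.14 over the 4. RRN3, the factor that brings the polymerase to the promoter, measured 138 and 135 CPM in shControl and 110.4 and 111.9 CPM in shNeuroD1 (log2 fold change -0.29, SE 0.0488, edgeR adjusted p 5.2e-06). UBTF, which holds the ribosomal DNA in an active form, measured 374 and 366 CPM in shControl and 321 and 321 CPM in shNeuroD1 (-0.20, SE 0.0411, adjusted p 8.7e-05). For both genes the knockdown libraries lay below both controls. POLR1B, a catalytic core subunit, went the other way, with 97.8 and 98.6 CPM in shControl and 107 and 113 CPM in shNeuroD1 (0.16, SE 0.0519, adjusted p 0.0080). POLR1A, the largest subunit, measured 268 and 293 CPM in shControl and 264 and 270 CPM in shNeuroD1, so its groups overlapped (-0.07, SE 0.0453, adjusted p 0.18). The difference in direction between POLR1B and the loading factors was not tested. The call of POLR1B was lost without shControl replicate 1 (0.15, adjusted p 0.12), without shControl replicate 2 (0.16, adjusted p 0.10) and without shNeuroD1 replicate 2 (0.12, adjusted p 0.20), with the DESeq2 Wald test (0.16, adjusted p 0.075) and with no filter on low counts (0.15, adjusted p 0.057). POLR1A gained a call as lower without shControl replicate 1 (-0.15, adjusted p 0.037).

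All 5 members grouped as abundant nucleolar proteins were lower (median log2 fold change -0.22). The name does not hold for LYAR by its transcript level, with 27.5 and 27.0 CPM in shControl and 23.5 and 23.2 CPM in shNeuroD1. DDX21, an RNA helicase that acts in both ribosomal RNA synthesis and processing, had the largest change of any member: 464 and 468 CPM in shControl and 273 and 287 CPM in shNeuroD1, or 60.1% of the control level (log2 fold change -0.73, SE 0.0419, edgeR adjusted p 5.1e-16). NCL encodes nucleolin, an RNA-binding protein of the early precursor. It fell from 1587 and 1584 CPM to 1156.5 and 1167 CPM, or 73.3% of the control level (-0.45, SE 0.0372, adjusted p 5.1e-12). NPM1, nucleophosmin, the chaperone of the outer nucleolar layer, fell less, from 1670 and 1611 CPM to 1475 and 1482 CPM (-0.15, SE 0.0375, adjusted p 0.0011). In each of these genes the lower libraries were the 2 with the NeuroD1 hairpin. NOLC1, which escorts snoRNPs (-0.15, adjusted p 0.0025), and LYAR, a nucleolar zinc finger protein (-0.22, adjusted p 0.033), completed the group. LYAR lost its call without any 1 of the 4 libraries (log2 fold changes from -0.25 to -0.21, adjusted p from 0.079 to 0.14), and NOLC1 lost it without shNeuroD1 replicate 2 (-0.14, adjusted p 0.077). NPM1 and RRN3 have pseudogenes or near-identical copies in the genome, and how reads shared with them were counted is not given in the sources used here.

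The box C/D and box H/ACA particles did not move as units. Of the members in the box C/D particle, FBL, NOP56 and NOP58 were lower. RRP9, the protein particular to the U3 particle, did not pass (-0.03, SE 0.0729, edgeR adjusted p 0.73). SNU13, a further box C/D protein outside the 44 members, was higher (0.11, SE 0.0481, edgeR adjusted p 0.048). It measured 135 and 129 CPM in shControl and 144 and 141 CPM in shNeuroD1. FBL, fibrillarin, is the methyltransferase of the particle. It measured 224 and 216 CPM in shControl and 184 and 173 CPM in shNeuroD1 (log2 fold change -0.30, SE 0.0459, adjusted p 1.3e-06). NOP58, one of a pair of related scaffold proteins, fell from 189 and 183 CPM to 137 and 135 CPM (-0.45, SE 0.0462, adjusted p 5.0e-10). Its partner NOP56 fell from 304 and 288 CPM to 261 and 261 CPM (-0.18, SE 0.0432, adjusted p 6.6e-04). The knockdown libraries lay below the controls for FBL, NOP58 and NOP56. The log2 ratio of NOP58 to NOP56 in CPM went from -0.69 and -0.65 in shControl to -0.93 and -0.96 in shNeuroD1. In the counts the transcripts of the pair thus fell unequally, a difference that was not tested. In the deposited FPKM values NOP58 was at 0.14 and NOP56 at -0.15, the other order, and neither passed.

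In the box H/ACA particle, DKC1 and NOP10 were lower while NHP2 and GAR1 did not pass. DKC1, dyskerin, is the pseudouridine synthase and also a telomerase component. It measured 212 and 198 CPM in shControl and 165 and 165 CPM in shNeuroD1 (log2 fold change -0.32, SE 0.0464, edgeR adjusted p 7.3e-07). NOP10, a small core protein, had a log2 fold change of -0.17 (adjusted p 0.018), and lost its call without shControl replicate 1 (-0.12, adjusted p 0.14), without shNeuroD1 replicate 1 (-0.18, adjusted p 0.085) and without shNeuroD1 replicate 2 (-0.17, adjusted p 0.10). The RNA-binding core protein NHP2 was at 0.04 (SE 0.0533, adjusted p 0.60) and GAR1, which binds dyskerin, at -0.02 (SE 0.0791, adjusted p 0.86). The log2 ratio of DKC1 to NHP2 in CPM went from 1.26 and 1.18 in shControl to 0.85 and 0.88 in shNeuroD1. The 2 ratios of each group did not overlap those of the other. Of the exon bases of NHP2, 27.4% lie in RMND5B on the opposite strand.

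**Figure D2:**
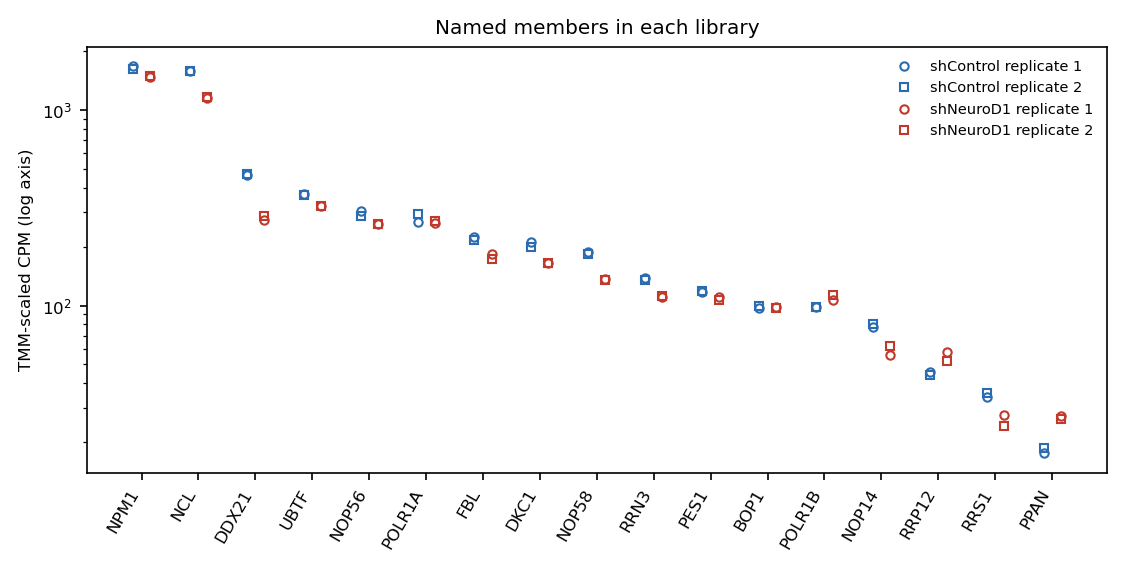
TMM-scaled CPM (log axis) of the 17 members described library by library, in order of their shControl mean, with circles for replicate 1 and squares for replicate 2. For DDX21 the shNeuroD1 libraries at 273 and 287 CPM lie below the shControl libraries at 464 and 468 CPM, while for PPAN the order is the opposite and for BOP1 the points mix.

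Of 13 factors of the 40S subunit, 6 were lower, 1 was higher and 6 did not pass, with a median log2 fold change of -0.14. NOP14, a part of the large complex that forms on the 5' end of the precursor, fell from 77.95 and 80.7 CPM to 56.1 and 61.8 CPM (log2 fold change -0.43, SE 0.0606, edgeR adjusted p 3.7e-07). The knockdown libraries were below both controls. RRP12, which takes part in export and late maturation of pre-ribosomes, rose from 45.9 and 44.3 CPM to 58.2 and 52.1 CPM (0.29, SE 0.0685, adjusted p 5.9e-04). That call was lost without shControl replicate 1 (0.30, adjusted p 0.083), without shControl replicate 2 (0.25, adjusted p 0.12) and without shNeuroD1 replicate 1 (0.21, adjusted p 0.059). Members of the same subcomplex differed in outcome. Among the UTP-A proteins, which join transcription to processing, UTP15 (-0.32, adjusted p 2.7e-04) and WDR43 (-0.28, adjusted p 5.1e-06) were lower, whereas WDR75 (-0.10, adjusted p 0.11) and HEATR1 (-0.04, adjusted p 0.44) did not pass. UTP20, a large scaffold protein, was lower (-0.22, adjusted p 6.0e-04), and lost its call without shControl replicate 2 (-0.18, adjusted p 0.057). The late 40S factors BYSL (-0.25, adjusted p 7.9e-04) and TSR1 (-0.19, adjusted p 0.0018) were lower, and their companion PNO1 was at -0.08 (adjusted p 0.32). The helicase DDX10 (-0.14, adjusted p 0.080), the RNA acetyltransferase NAT10 (-0.00, adjusted p 0.97) and the U3-associated protein IMP4 (0.12, adjusted p 0.076) did not pass, although DDX10 did without shNeuroD1 replicate 1 (-0.24, adjusted p 0.017).

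Of 14 factors of the 60S subunit, 6 were lower, 1 was higher and 7 did not pass, with a median log2 fold change of -0.13. RRS1, which brings in the 5S ribonucleoprotein, fell from 33.9 and 35.8 CPM to 27.6 and 24.2 CPM (log2 fold change -0.43, SE 0.0847, edgeR adjusted p 6.8e-05), and lost its call without shControl replicate 2 (-0.40, adjusted p 0.063). NIP7 (-0.38, adjusted p 1.3e-05), the helicase DDX18 (-0.35, adjusted p 9.0e-08), MRTO4, a placeholder for the ribosomal stalk (-0.33, adjusted p 0.0016), GNL3, the nucleolar GTPase nucleostemin (-0.26, adjusted p 1.8e-05), and NOC2L (-0.17, adjusted p 0.028) were also lower. NOC2L lost its call without shControl replicate 1 (-0.10, adjusted p 0.21), without shNeuroD1 replicate 1 (-0.17, adjusted p 0.11) and without shNeuroD1 replicate 2 (-0.17, adjusted p 0.12). None of the PES1, BOP1 and WDR12 trio, which forms 1 complex of early 60S assembly, passed. PES1 measured 117 and 118 CPM in shControl and 110 and 107 CPM in shNeuroD1 (-0.11, SE 0.0501, adjusted p 0.055), BOP1 measured 97.7 and 99.0 CPM against 98.8 and 97.4 CPM (-0.00, SE 0.0517, adjusted p 0.96), and WDR12 was at -0.06 (adjusted p 0.36). The BOP1 libraries of the groups overlapped and those of PES1 did not, and PES1 gained a call as lower with DESeq2 size factors in edgeR (-0.12, adjusted p 0.049). NOP16 (-0.15, adjusted p 0.075), the RNA methyltransferase NOP2 (-0.06, SE 0.104, adjusted p 0.68), WDR74 (0.01, adjusted p 0.94) and RRP1B (0.07, adjusted p 0.26) did not pass either.

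PPAN, a 60S factor related to yeast SSF1, was the member with the largest rise. It measured 17.6 and 18.7 CPM in shControl and 27.2 and 26.2 CPM in shNeuroD1, or 147% of the control level (log2 fold change 0.56, SE 0.0946, edgeR adjusted p 7.8e-06). Of its exon bases (chromosome 19, 10106289 to 10111634, plus strand, GRCh38), 59.8% also lie in the readthrough gene PPAN-P2RY11 or in P2RY11 on the same strand. P2RY11, a purinergic receptor gene downstream of PPAN, was at 7.87 and 7.87 CPM in shControl and 12.03 and 15.2 CPM in shNeuroD1 (0.79, SE 0.143, adjusted p 2.1e-05), and PPAN-P2RY11 was at 0.79 CPM or less in every library. How reads in the shared bases were counted is not given in the sources used here. The PPAN counts may therefore hold reads of these neighbours or lack reads of PPAN itself. NOP2 shared 54.4% of its exon bases with a gene on the same strand, AC006064.6, which was at 0.07 CPM or less in every library. Reads in shared bases may have been left out of both genes. The low level of AC006064.6 therefore does not settle the overlap, and the NOP2 value is uncertain. HEATR1, WDR74, TSR1, NIP7 and NOP16 shared 20.0% to 23.2%, with genes of the opposite strand only (TSR1, NIP7 and NOP16) or of both strands (HEATR1 and WDR74), and their values are uncertain because the use of strand in counting is not given. NOP14 shared 17.1% with NOP14-AS1 on the opposite strand, and RRS1 shared 11.4% with AC009879.2 on the same strand. These 2 values carry a like limit. Over the 20 members with no shared exon base, 12 were lower and 1 was higher with a median of -0.16. Over the 24 others 12 were lower and 2 were higher with the same median.

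As a total, the members took 0.829% and 0.825% of all counts in shControl and 0.758% and 0.761% in shNeuroD1. After TMM scaling their summed level went from 8664 and 8558 CPM in shControl to 7304 and 7331 CPM in shNeuroD1. Without NCL and NPM1, which made up much of it, the sums were 5407 and 5364 CPM against 4673 and 4682 CPM. CPM is a relative measure, total RNA per cell was not measured, and in bulk samples fewer cells of a type and less RNA per cell cannot be told apart. Per length, as CPM divided by exon length in kilobases (RPKM), the control levels ran from 5.06 for NOP2 to 428 for NPM1. After NPM1 came NCL at 229, NOP10 at 117, NOLC1 at 116 and FBL at 101. The NOP2 level is uncertain, because 54.4% of its exon bases are shared with another gene. Members at a higher level tended to have the more negative log2 fold change. Spearman's rho between level and change was -0.26 over the 44 members, -0.26 over all 17537 genes and -0.11 over the 8134 genes at or above the level of the lowest member, all from the same 4 libraries.

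**Figure D3:**
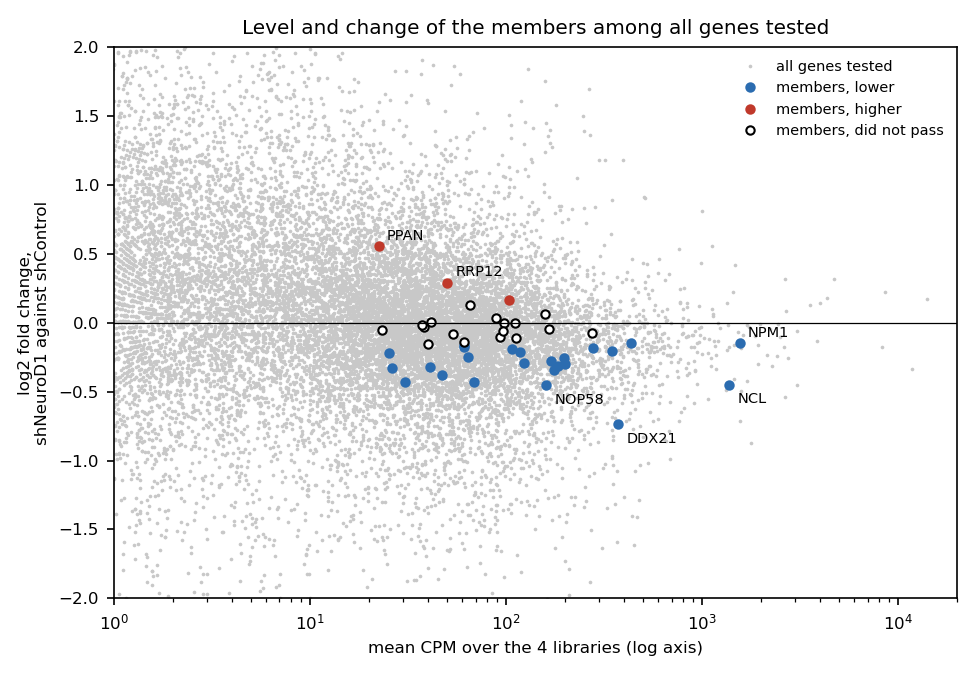
Mean CPM over the 4 libraries (x axis, log scale) against log2 fold change (y axis) for all tested genes in grey and the 44 members in colour. Genes beyond a log2 fold change of 2 or under 1 CPM are outside the axes. The members lie within the cloud of genes of like level, with NPM1 and NCL at the far right and DDX21 lowest.

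In the rest of the pathway the shares lay close to those of the members. Of 130 other ribosome biogenesis genes, 68 (52.3%) were lower and 9 (6.92%) were higher, and their median change was -0.19 on the log2 scale. By step, 6 of 11 other RNA polymerase I genes, 25 of 46 other 40S genes, 23 of 49 other 60S genes, 6 of 11 snoRNP assembly genes and 8 of 13 subunits and partners of the RNA exosome, which trims precursor RNA, were lower, and 1, 3, 4, 1 and 0 were higher. The 3 largest called changes in each list, counting only genes whose mean reached 10 CPM, were as follows. In the exosome they were those of the subunits EXOSC9 (-1.004, edgeR adjusted p 4.0e-16), EXOSC8 (-0.86, adjusted p 1.3e-12) and EXOSC5 (-0.44, adjusted p 4.5e-04). The snoRNP assembly factors PIH1D1 (-0.78, adjusted p 3.4e-11), SHQ1 (-0.44, adjusted p 5.8e-05) and NAF1 (-0.36, adjusted p 8.7e-04) fell with DKC1, whose particle SHQ1 and NAF1 help to build. In 60S assembly RSL24D1 (-0.72, adjusted p 1.3e-14), BRIX1 (-0.72, adjusted p 1.5e-11) and CEBPZ (-0.52, adjusted p 4.1e-11) fell. In 40S assembly UTP18 (-0.62, adjusted p 6.3e-12) and UTP3 (-0.48, adjusted p 2.9e-07) fell while TSR2, the escort of a small-subunit protein, rose (0.62, adjusted p 2.9e-09). Among the polymerase I genes POLR1H (-0.40, adjusted p 9.6e-04), TAF1A (-0.30, adjusted p 0.0041) and TTF1 (-0.29, adjusted p 0.0024) fell, and POLR1G, under 10 CPM, fell as well (-0.38, adjusted p 0.044).

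Cytosolic ribosomal protein genes, the products that these factors assemble, were lower in 48 of 79 cases and higher in 1, with a median log2 fold change of -0.13. Other genes commonly listed as MYC-induced, outside ribosome biogenesis, were lower in 27 of 38 tested and higher in 3, with a median of -0.28. Genes of DNA replication fell much further than the members. All 29 were lower, with a median of -1.18. The level of these genes moved with the result, and their part in it was not tested.

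**Figure D4:**
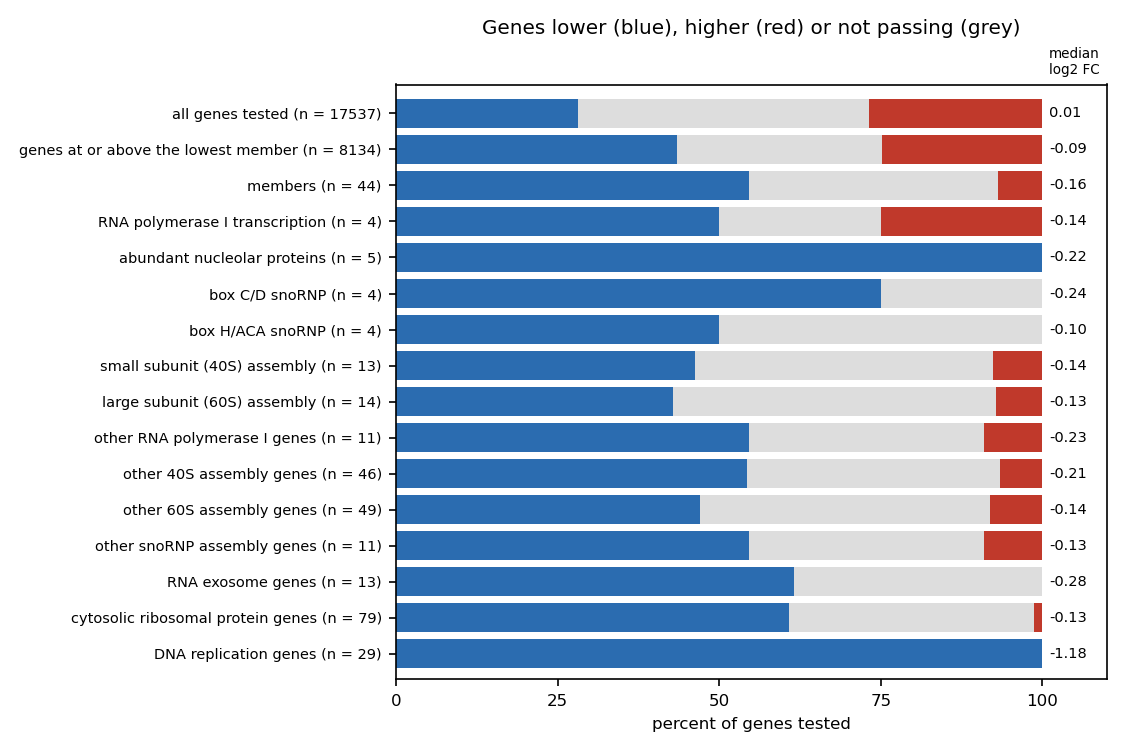
Percent of tested genes in each list that were lower (blue), higher (red) or did not pass (grey) at an adjusted p under 0.05, with the number tested beside each name and the median log2 fold change on the right. Among the members 24 of 44 were lower and 3 were higher, and among DNA replication genes 29 of 29 were lower with a median of -1.18.

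MYCN messenger RNA did not pass the test. It measured 2025 and 1945 CPM in shControl and 1969 and 1980 CPM in shNeuroD1 (log2 fold change -0.01, SE 0.0372, edgeR adjusted p 0.89), and the groups overlapped. N-Myc protein was not measured in these libraries. On western blots that included IMR-32 cells, the paper reports less N-Myc protein after NeuroD1 knockdown, with unchanged MYCN messenger RNA. The part of N-Myc protein in the changes of the members was not tested. MYC was at 0.47 CPM or less in every library and was not tested. Of 10 tested genes of the MYC and MAX network, 3 were lower (MAX, MXD3 and MGA) and 3 were higher (MXD1, MXD4 and MNT), which are named here after their values were seen.

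The knockdown and the libraries were checked. NEUROD1 measured 418.9 and 414.5 CPM in shControl and 63.7 and 58.2 CPM in shNeuroD1 (log2 fold change -2.77, edgeR adjusted p 8.6e-29). Libraries held 14665210 to 16482463 counts, and mitochondrial genes took 4.37% to 4.59% of counts in shControl and 5.39% to 5.51% in shNeuroD1. All 10 sympathetic neuroblast markers were detected, with summed levels of 2339 to 2365 CPM in shControl and 2137 to 2163 CPM in shNeuroD1. Of 8 glial markers 5 were under 1 CPM (CDH19 and FOXD3 at 0), and the sum was 5.50 to 5.60 CPM against 8.81 to 10.2 CPM. Of 9 mesenchymal markers 3 were under 1 CPM (PRRX1 at 0), and the sum was 197 to 203 CPM against 126 to 132 CPM. That fall was one of PDGFRA and COL1A1, while the 4 other markers tested (COL3A1, LUM, PDGFRB and THY1) were higher, and the median over the 6 was 0.45. The part of the mitochondrial share and of these markers in the changes of the members was not tested.

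The scaling of the libraries moved the members and all genes together. With library size alone in place of TMM, the median of all genes rose from 0.01 to 0.12. That of the members rose from -0.16 to -0.05. The difference between them was -0.17 under both, which had to be so because a change of scaling shifts every gene nearly alike. The split of calls changed with it: 14 members were lower and 6 were higher, and 3639 genes were lower and 6114 higher over all. With the DESeq2 Wald test, the study's own method, 21 members were lower and 2 were higher, and LYAR, NOP10, NOC2L and POLR1B lost their calls. Of the 24 members that were lower, 13 passed in the same direction in all 10 other settings of the count test (RRN3, NCL, DDX21, FBL, NOP58, DKC1, NOP14, UTP15, WDR43, NIP7, MRTO4, DDX18 and GNL3), and of the 3 that were higher PPAN did. In the deposited FPKM values, tested with limma, none of the 38 members whose mean FPKM reached 1 passed, and the median was -0.09. With a pseudocount of 1, 245 and 244 of 10083 genes were lower and higher there. NOP10 was not among the 38, although it stood at 117 RPKM in the shControl counts.

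**Figure D5:**
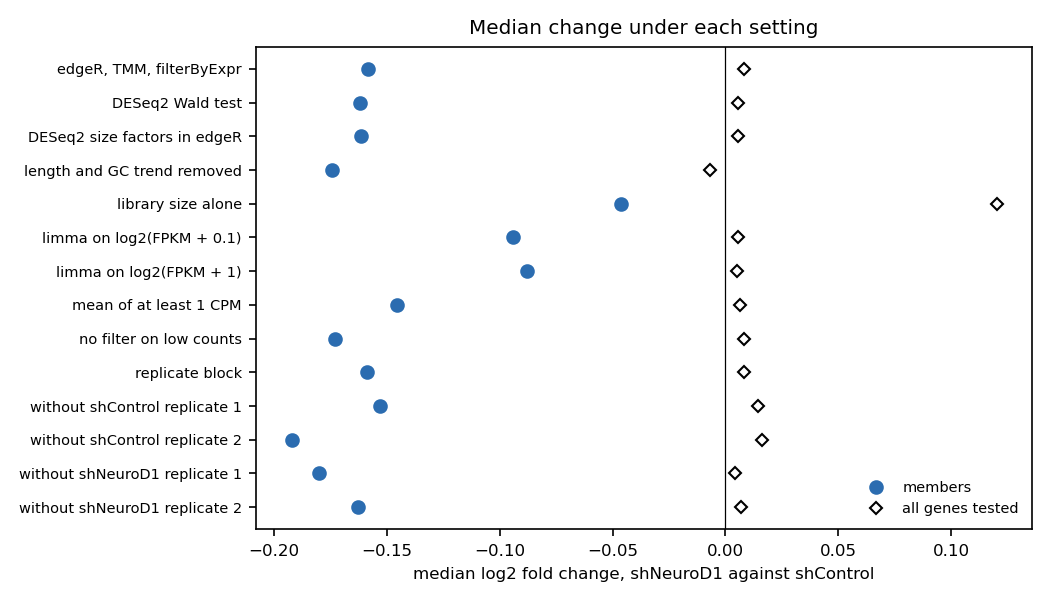
Median log2 fold change (x axis) of the members (circles) and of all tested genes (diamonds) under each setting (rows). The members lie to the left of all genes in every row, by 0.15 to 0.21 in the count rows and by 0.093 to 0.10 in the FPKM rows, which hold 38 members.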

How the data were processed

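RNA of IMR-32 cells was sequenced by the authors (2 libraries with shControl, 2 with shNeuroD1), and groups were taken from the sample titles. The authors deposited raw read counts per Ensembl gene. The submitters' processing notes name cutadapt 1.9.1, HISAT2 2.0.1, HTSeq 0.6.1 and genome build hg38. Strand use and annotation release are not given in the sources used here. The authors also deposited FPKM values per event of assembled transcripts, which list an event only where its value is above 0. Columns of the authors' own comparison (fold changes and p-values) were not used.

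Counts were fitted in edgeR 4.0.16 (R 4.3.3): filterByExpr with a minimum count of 10, TMM scaling, quasi-likelihood F test, two-sided, Benjamini-Hochberg adjustment over all 17537 genes. The study used DESeq2, run here as an alternative (1.42.0). The SE is the size of the log2 fold change divided by the square root of F. CPM are TMM-scaled, and RPKM divide them by union exon length (GENCODE, GRCh38). Symbols were found for 58477 of 60612 gene IDs. Gene FPKM was the sum over transcript starts, with a mean of at least 1, fitted in limma 3.58.1 on log2(FPKM + 1) and log2(FPKM + 0.1), without NEUROD1, whose locus was merged with CERKL.

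The members and lists were chosen with earlier results of these data known. Members named library by library were 11 chosen for their roles, the 5 largest falls and 5 largest rises past an adjusted p of 0.05, of which there were only 3 rises, and the largest change in each role group. Other pathway genes named are the 3 largest called changes with a mean of at least 10 CPM in each list. The comparison with genes at or above the level of the lowest member and the removal of a length and GC trend were chosen after seeing the data. Within each group, only 2.09% and 2.53% of genes had identical counts, so no count column was a copy of another. This check cannot tell separate cultures from repeats of the same RNA sample. Other alternatives were DESeq2 size factors, library size alone, no filter, a mean of at least 1 CPM, a replicate block and leaving out each library. 1 marker list is not reported here.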

Additional observations from a re-analysis of the deposited data

How the results depend on the processing

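With 2 libraries a group, the spread rests on 2 residual degrees of freedom shared across genes, and changes under 0.147 on the log2 scale were not called in any member, so 17 members without a call are not shown to be unchanged. Exact depth of the FPKM tables is unknown. Of the member results under other count settings than leaving out a library, 228 kept direction and side of the threshold, 18 lost a call, 5 gained one and 13 changed direction. Where a value below moved, the cause was not tested unless stated.

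No member passed when a log2 fold change beyond 1 was also asked (0 lower, 0 higher). With library size alone, 14 members were lower and 6 higher with a median of -0.0461, because this scaling moved the median of all genes from 0.01 to 0.12. The medians were then -0.0263 for RNA polymerase I genes, -0.110 for abundant nucleolar proteins, -0.129 for box C/D, 0.0161 for box H/ACA, -0.0249 for 40S and -0.0203 for 60S genes. Other pathway genes had 44 lower with a median of -0.0793, and MYCN was at 0.105. Under it POLR1A (0.0393), RRP9 (0.0795), GAR1 (0.0938), HEATR1 (0.0679), WDR75 (0.0107), NAT10 (0.110), PNO1 (0.0321), NOP2 (0.0561), BOP1 (0.108) and WDR12 (0.0504) changed direction. With the length and GC trend removed the medians were -0.181 for RNA polymerase I genes, -0.189 for nucleolar proteins, -0.288 for box C/D, -0.162 for box H/ACA, -0.0452 for 40S and -0.208 for 60S genes. Under the filter at 1 CPM, MYCN (0.00585), NAT10 (0.0108) and BOP1 (0.00931) changed direction, and with no filter WDR74 did (-0.00752).

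In the FPKM values 0 members were lower and 0 higher with either pseudocount. With a pseudocount of 0.1 the medians were -0.0940 for members, 0.0601 for RNA polymerase I, -0.0200 for box C/D, 0.197 for box H/ACA, -0.198 for 40S and 0.0537 for 60S genes, and other pathway genes had 0 lower with a median of -0.120. With a pseudocount of 1 these medians were -0.0878, 0.0533, -0.0196, 0.194, -0.186 and 0.0522, and other pathway genes had 1 lower with a median of -0.104. Genes that changed direction there, with the value at 0.1 and then at 1, were MYCN (0.131, 0.131), POLR1A (0.393, 0.368), NPM1 (0.0963, 0.0961), NOP58 (0.150, 0.142), GAR1 (1.58, 1.39), HEATR1 (0.0853, 0.0772), PNO1 (0.0518, 0.0491), PES1 (0.495, 0.476), BOP1 (0.279, 0.267), MRTO4 (0.706, 0.611) and GNL3 (0.161, 0.159).

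Leaving out 1 library in turn, with the lone library assumed to vary like the other group, gave 20 to 22 members lower, 1 to 2 higher and medians from -0.192 to -0.153. Medians ran from -0.173 to -0.123 for RNA polymerase I, -0.248 to -0.212 for nucleolar proteins, -0.284 to -0.219 for box C/D, -0.150 to -0.0602 for box H/ACA, -0.195 to -0.154 for 40S and -0.154 to -0.141 for 60S genes. Other pathway genes had 41 to 60 lower with medians from -0.206 to -0.173, NEUROD1 ran from -2.84 to -2.71 and MYCN from -0.0464 to 0.0113. Members near 0 changed direction with the library left out: GAR1 ran from -0.121 to 0.0757, NAT10 from -0.0320 to 0.0239, NOP2 from -0.229 to 0.126, BOP1 from -0.0238 to 0.00612, WDR12 from -0.130 to 0.00049 and WDR74 from -0.0208 to 0.0198.

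Same-numbered libraries did not deviate together (r = 0.0158 over 17537 genes), so the replicate numbers do not pair them. With a replicate block 24 members were lower and 3 higher with a median of -0.159, and 5000 and 4748 of all genes were called in place of 4939 and 4698.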

Other observations

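Some members hold annotated snoRNA genes within their bounds on the same strand, and these 8 members were looked at after their values were seen. In NOP56, NOP58, DKC1 and GNL3 some of these snoRNA genes overlap annotated exon bases of the host. Whether that affected the counts was not tested. NCL, NOP56, NOP58, DKC1, WDR43, TSR1 and GNL3 were lower and PPAN was higher, so each of the 8 passed the test. Of the 36 members that host no annotated snoRNA gene, 17 were lower and 2 were higher. Over all tested genes 55% passed. Over genes at or above the level of the lowest member 43.5% were lower and 24.9% were higher. The contrast of hosts with other members was not tested. NOP56 hosts 5 annotated snoRNA genes, among them SNORD57 and SNORD86, and NCL hosts 3, SNORA75, SNORD20 and SNORD82. Outside the members, 207 other protein-coding hosts that are no ribosomal protein genes had 79 lower and 53 higher with a median log2 fold change of -0.07, and the 151 of them at or above the level of the lowest member had 71 lower and 36 higher with a median of -0.11. Of 28 ribosomal protein genes that host snoRNA genes, 19 were lower and 0 higher, with a median of -0.14. Of 46 non-coding host genes 8 were lower and 15 were higher, with a median of 0.18. The snoRNAs themselves were not analysed here.

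GC content and change went together over the members. Spearman's rho between the GC content of the longest transcript and the log2 fold change was 0.36 over 44 members, which share the same 4 libraries, and the median of the members was -0.17 once a trend on length and GC had been removed.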
